A study of Arabidopsis thaliana and Marchantia polymorpha and Mesotaenium endlicherianum with 120 samples.

Results

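The genes described here are those that the mitochondrion of Arabidopsis thaliana encodes itself. They were taken as the rows of the count table whose identifier begins with ATMG and that held at least 100 counts summed over 48 libraries. This rule gave 113 members of 152 such rows and 32833 genes in all, and the other 39 rows were below the threshold. Just inside the threshold lay ATMG01250 with 111 counts, ATMG00700 with 106 and ATMG00840 with 100, and just outside it ATMG00450 with 98, ATMG00250 with 93 and ATMG00100 with 92. The members held 3316765 counts. ATMG00020 and ATMG01390 took 84.34% of these, and the other 111 members shared 519449 counts.

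Whole seedlings of the wild type Col-0 and of the mutant lines Atpif4-2, Atphyb-9 and Athy5-2 were sampled at 7 days of age. All had grown for 2 days at 20 °C in light of 100 µmol per square metre and second, and then for 5 days under constant white light, at either 16 or 24 °C and at 10 or 100 of the same units. The 4 lines and 4 conditions made 16 groups of 3 libraries. The lines carry mutations named for PIF4, a transcription factor that acts in warmth and shade growth, for PHYB, a red light photoreceptor that also senses temperature, and for HY5, a transcription factor of light-grown seedlings. Nothing in the sources used here says whether the 3 libraries of a group came from separate cultures, so p-values measure only the spread between these libraries, which may be technical.

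The plant mitochondrial genome keeps a small share of the genes for the organelle. It encodes core subunits of the respiratory chain complexes and of the ATP synthase, part of the machinery that attaches heme to cytochrome c, some ribosomal proteins, and ribosomal and transfer RNAs. Most mitochondrial proteins, and most of the factors that transcribe, splice, edit and degrade these transcripts, are encoded in the nucleus and imported. Plant mitochondrial transcripts are usually made without the long poly(A) tail of nuclear messengers, and a tail marks many of them for decay.

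The RefSeq reference used here (TAIR10.1) does not list the ATMG identifiers. It mentions 48 of the 113 members in notes on genes of chromosome 2, where the nuclear genome carries a long copy of mitochondrial DNA. Those notes gave a usable product for 24 members, and the words used below for these members are taken from them. The products were ATP synthase subunits for 4 members, complex I (NADH dehydrogenase) subunits for 3, apocytochrome b of complex III for 1 and a subunit of complex IV for 1. A further 3 were annotated for cytochrome c maturation, 4 as ribosomal proteins and 8 with other products. Those 8 include ATMG01280, noted as a cytochrome c oxidase subunit II-like transmembrane domain, and ATMG01090, noted as ATP synthase 9. The remaining 24 noted members had no stated role, and 65 members had no note and are given by identifier alone, ATMG00020 and ATMG01390 among them. The gene list drawn up for the tests names ATMG00020, ATMG01390 and ATMG01380 as the ribosomal RNA genes rrn26, rrn18 and rrn5, without a check against the reference. It also places unnoted members in the roles above, such as ATMG01360 in complex IV, ATMG00070 in complex I and ATMG00090 among the ribosomal proteins. Counts for these roles below cover only members with a note. No gene lengths were given for the members, so levels are compared between samples and not between genes.

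The sequences show how closely some members resemble their nuclear copies. The first 100 bases of atp1, which corresponds to ATMG01190, are printed with those of the chromosome 2 gene AT2G07698, with the first codon in capitals, because reads of 100 bases from such a stretch cannot be assigned to either place by sequence. The mitochondrial stretch is MT:68522-68621 on the minus strand and the nuclear stretch chr2:3362505-3362604 on the plus strand, both in TAIR10.1.
ATMG01190 (atp1): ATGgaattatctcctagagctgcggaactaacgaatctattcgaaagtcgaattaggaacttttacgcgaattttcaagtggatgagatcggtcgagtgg
AT2G07698 (chromosome 2): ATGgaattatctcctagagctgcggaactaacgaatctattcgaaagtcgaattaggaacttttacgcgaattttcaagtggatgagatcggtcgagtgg
All 1524 of the 1524 bases of atp1 were found unchanged in AT2G07698. A difference lay 577 bases before the atp1 start codon, at the capital of the next pair. The substitution is C15T, counted from 1 at the 5′ end of the printed stretch, with the mitochondrial base first. The stretches are MT:69184-69212 on the minus strand and chr2:3361914-3361942 on the plus strand.
before atp1 (mitochondrial): cgccccctttcctcCgcaacttacacatc
before the copy (chromosome 2): cgccccctttcctcTgcaacttacacatc
ATMG00980, the ribosomal protein S12 gene rps12, had the same 378 of 378 bases in AT2G07675. Its first 100 bases are MT:288446-288545 and chr2:3270410-3270509, both on the plus strand, again with the first codon in capitals.
ATMG00980 (rps12): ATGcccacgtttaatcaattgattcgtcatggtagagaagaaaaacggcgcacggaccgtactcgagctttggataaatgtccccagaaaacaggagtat
AT2G07675 (chromosome 2): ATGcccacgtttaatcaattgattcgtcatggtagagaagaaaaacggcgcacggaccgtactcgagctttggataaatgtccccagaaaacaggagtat
In all, 48 members formed 49 pairs with chromosome 2 genes, 25 of them identical over the aligned bases, with a lowest identity of 99.029%. In 42 pairs the nuclear copy had counts of its own, and in 30 pairs it had more counts than the member. Because the counting did not separate identical stretches by any rule given in the sources used here, the values of these members are uncertain to the extent that reads were shared.

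Libraries held 30806701 to 44043446 counts. The counts in 4 annotated nuclear ribosomal RNA genes, called the nuclear rRNA share here, ranged from 0.667 to 21.8% of a library at light 10 (median 5.71%, n = 24) and from 0.302 to 9.37% at light 100 (median 0.547%, n = 24). At light 100, 3 libraries stood apart with a share over 2%. They were replicate 1 of Atphyb-9 at 24 °C (9.37%) and replicates 1 and 2 of Athy5-2 at 16 °C (3.12 and 2.79%). In Atpif4-2, PIF4 transcripts ranged from 22.0 to 29.6 CPM (counts scaled to a library of 1e+06) at light 10, below the 50.3 to 91.0 CPM of Col-0, but at light 100 their 9.96 to 21.6 CPM overlapped the 10.7 to 85.8 CPM of Col-0. These ranges, and those below for PHYB and HY5, cover both temperatures. At 24 °C and light 100, mean PIF4 was 20.1 CPM in Atpif4-2 and 73.2 CPM in Col-0 (SD 1.69 and 11.1, n = 3). At 16 °C and light 100 these means were 10.4 and 11.7 CPM. In Atphyb-9, PHYB ranged from 25.2 to 29.7 CPM at light 10 against 34.0 to 38.5 CPM in Col-0, and from 20.4 to 30.5 CPM at light 100 against 32.0 to 52.0 CPM. HY5 in Athy5-2 ranged from 2.39 to 6.29 CPM at light 10 and overlapped the 5.06 to 7.19 CPM of Col-0, but at light 100 it lay at 1.66 to 4.92 CPM, below the 5.88 to 7.6 CPM of Col-0. At 24 °C and light 10, mean HY5 was 2.62 CPM in Athy5-2 and 5.83 CPM in Col-0 (SD 0.20 and 0.67, n = 3). At 16 °C and light 10 these means were 5.57 and 6.39 CPM. What each allele removes from the transcript is not given in the sources used here, so these levels do not check the labels. All 5 green shoot markers and 10 of the 11 root markers had counts in every group. WOX5, a marker of the root stem cell niche, was at 0 in the 3 libraries of Athy5-2 at 24 °C and light 10 and had a group mean of at most 0.702 CPM elsewhere.

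The members were high at light 10 and low at light 100. All 113 members had their highest group mean at light 10, 75 of them in Athy5-2 at 24 °C and 26 in Atphyb-9 at 24 °C. The lowest group mean was at light 100 for 98 members, and for 71 members it was that of Col-0 at 16 °C and light 100. In Col-0, the summed level of the 111 members other than ATMG00020 and ATMG01390 was 506 ± 101 CPM (SD, n = 3) at 16 °C and light 10, and 290.3 ± 56.7 CPM at 24 °C and light 10. At light 100 it was 63.3 ± 19.5 CPM at 16 °C and 109 ± 10.4 CPM at 24 °C. None of these 4 groups overlapped another. Library sizes for CPM were scaled by the TMM method. In whole seedlings, fewer cells of a type, fewer mitochondria and less RNA in each cannot be told apart.

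**Figure D1:**
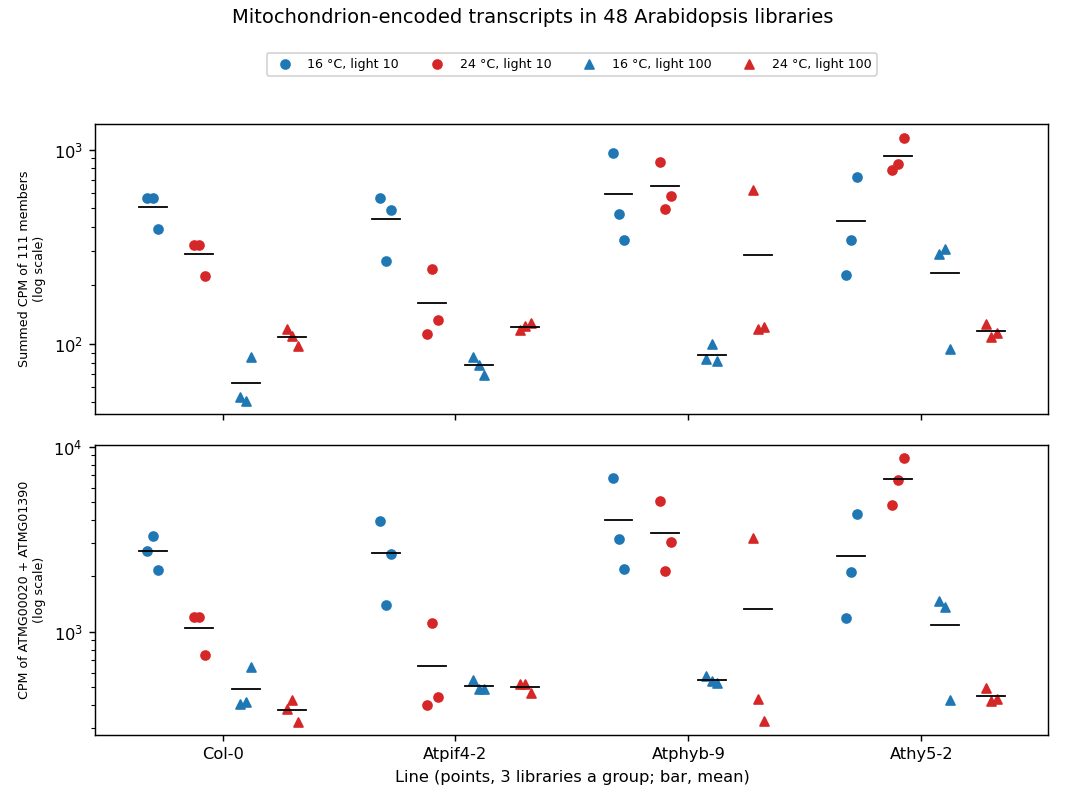
Summed CPM on a log scale for 111 members (upper panel) and for ATMG00020 plus ATMG01390 (lower panel) in each of 48 libraries, by line, temperature and light, with bars at the group means of 3 libraries. In Col-0 the 111 members lie between 389 and 567 CPM at 16 °C and light 10 and between 51.0 and 85.8 CPM at 16 °C and light 100, and 1 library of Atphyb-9 at 24 °C and light 100 and 2 of Athy5-2 at 16 °C and light 100 lie far above their light 100 neighbours.

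At 16 °C, brighter light went with lower levels of mitochondrion-encoded transcripts in Col-0 across all annotated roles. A filter on low counts left 95 of the 113 members for the tests, and calls were made below an adjusted p of 0.05 in edgeR's quasi-likelihood test with Benjamini-Hochberg adjustment over 22828 genes. From light 10 to light 100, 71 of the 95 members fell and 0 rose, where 19.6% of all genes were called lower and 17.4% higher. The median log2 change was -2.80 over the members and 0.02 over all genes. Transcripts of the other organelle moved with them, and no test of a difference between the organelles was made. In these Col-0 libraries at 16 °C, rows for plastid-encoded genes took 4.45, 5.76 and 3.81% of counts at light 10 and 1.03, 1.05 and 1.46% at light 100, where the members took 0.292, 0.353 and 0.248% and then 0.0583, 0.0587 and 0.0909%.

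Among the ATP synthase members, which form the enzyme that makes ATP from the proton gradient, 4 of 4 fell, with log2 changes from -4.63 to -3.80. ATMG01190, the catalytic-sector subunit 1, measured 95.2, 95.4 and 58.8 CPM at light 10 and 3.04, 1.81 and 5.30 CPM at light 100. The groups lay far apart, and the log2 change was -4.63 ± 0.76 (SE; adjusted p = 1.05e-05). ATMG01080, subunit 9 of the membrane ring, went from 11.6, 10.6 and 7.33 CPM to 0.677, 0.598 and 0.721 CPM, again with no overlap (log2 change -3.89 ± 0.60, adjusted p = 3.3e-06). ATMG00480, subunit 8, changed by -3.80 and ATMG00410, subunit 6, by -3.86 on the log2 scale.

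The respiratory chain members fell as well. All 3 complex I members, subunits of the NADH dehydrogenase through which electrons enter the chain, were called lower, from -1.94 for ATMG00990 (NADH dehydrogenase 3) to -3.66 for ATMG01320 (NADH dehydrogenase 2B). ATMG00220, apocytochrome b, measured 6.37, 5.09 and 2.82 CPM at light 10 and 0.329, 0.131 and 0.488 CPM at light 100. Its lowest light 10 library was above its highest light 100 library, and its log2 change was -3.93 ± 0.75 (adjusted p = 8.48e-05). ATMG00730, subunit 3 of cytochrome c oxidase, which passes electrons to oxygen, changed by -3.56 (adjusted p = 0.000252).

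All 4 ribosomal protein members fell. ATMG00290, ribosomal protein S4, measured 3.58, 2.97 and 2.92 CPM at light 10 and 0.329, 0.131 and 0.488 CPM at light 100, with no overlap and a log2 change of -3.33 ± 0.51 (adjusted p = 1.21e-06). ATMG00980, ribosomal protein S12, had the smallest change of the 4 at -1.64 (adjusted p = 0.00283). Of the cytochrome c maturation members 2 of 3 fell, ATMG00180 by 2.91 and ATMG00960 by 3.67 on the log2 scale, and ATMG00900 had a log2 change of -1.75 (adjusted p = 0.0607). Of the 8 members with other annotated products 5 fell, and ATMG00590, noted as a cytochrome b/b6 protein, had a log2 change of -0.32 (adjusted p = 0.597).

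Of the 55 tested members without a note 40 fell, with log2 changes from -4.49 for ATMG00080 to -0.79 for ATMG00660. ATMG01400 had 0 counts in all 3 light 10 libraries and 0, 4 and 0 counts at light 100, so no fold is given for it. Of the 16 tested members with a note but no stated role 11 fell. ATMG00080 measured 30.4, 28.9 and 27.8 CPM at light 10 and 0.915, 1.08 and 1.91 CPM at light 100 (log2 change -4.49 ± 0.66, adjusted p = 1.57e-06). ATMG00070 changed by -4.32, ATMG00510 by -4.11, ATMG01360 by -4.06, ATMG00270 by -3.79 and ATMG00110 by -3.25, and all 5 were called lower. ATMG00520, ATMG01380 and ATMG00660 were called lower with smaller changes of -1.56, -1.48 and -0.79. The abundant ATMG00020 went from 1913, 2170.0 and 1482 CPM to 341, 349.8 and 541 CPM (log2 change -2.18 ± 0.57, adjusted p = 0.00272). ATMG01390 went from 824, 1135 and 674 CPM to 68.1, 64.9 and 102 CPM (log2 change -3.49 ± 0.73, adjusted p = 0.000278).

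Nuclear rRNA moved in the same direction, with a share from 4.90 to 9.0% at light 10 to 0.480 to 0.799% at light 100 in these 2 groups of 3 libraries. With this share as a covariate 51 of the 71 members were still called lower and the median log2 change over the members was -1.74. With its log2 as a covariate, a fit chosen after the data were seen, 23 of the 71 members were still called lower. These fits called 33.3 and 27.4% of all genes in either direction. ATMG01190 (-1.71, adjusted p = 7.52e-07), ATMG01080 (-1.71, adjusted p = 0.000194), ATMG00220 (-1.12, adjusted p = 0.0124) and ATMG00290 (-1.69, adjusted p = 0.00373) were among these 23, whereas ATMG00020 changed sign to 0.24 (adjusted p = 0.459) and ATMG01390 stood at -0.40 (adjusted p = 0.105). The summed level of the 5 green shoot markers was also higher at light 10, at 118000 to 130500.0 CPM against 75790.0 to 83920.0 CPM, and that of the 11 root markers was lower, at 1691 to 1860.0 CPM against 2190.0 to 2299 CPM. The markers did not move together within a list. CAB1, a chlorophyll-binding protein gene, had group means of 69840.0 CPM at light 10 and 16700.0 CPM at light 100, whereas RBCS1A, for the small subunit of Rubisco, had 37070.0 and 52230.0 CPM. By group means 3 of 5 green markers and 3 of 11 root markers were higher at light 10, and PYK10, a root beta-glucosidase gene, made up most of the root sum at 1479 and 1990.0 CPM. The 4 seed reserve markers, genes for storage proteins and an oil body protein, summed to 28.8 to 198 CPM at light 10 and 9.26 to 47.7 CPM at light 100, and the groups overlapped. All 4 had the higher group mean at light 10, as CRA1, a seed storage globulin gene, with 34.0 ± 30.0 CPM (SD, n = 3) against 11.1 ± 6.68 CPM. The part of any marker list in the result was not tested.

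At 24 °C the same light step was called in fewer members. Of the 95 tested, 20 fell and 0 rose in Col-0, where 14.4% of all genes were called lower and 14.2% higher, and the median member had a log2 change of -1.16. Called lower were 3 of 4 ATP synthase members, 3 of 4 ribosomal protein members, 1 of 3 complex I members, 1 of 3 cytochrome c maturation members, apocytochrome b, 1 of 8 members with other annotated products and 10 of 55 members without a note. ATMG01190 went from 43.1, 44.0 and 23.1 CPM to 9.69, 7.56 and 6.63 CPM (log2 change -2.21 ± 0.68, adjusted p = 0.0136). ATMG00220 changed by -2.57 (adjusted p = 0.0059), ATMG00210, ribosomal protein L5, by -2.18 (adjusted p = 0.0084), and ATMG01360 by -2.18 (adjusted p = 0.0172).

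The lowest log2 changes were those of 4 members without a note. The gene list places ATMG00090 and ATMG00080 among the ribosomal proteins and ATMG00070 and ATMG00510 in complex I. ATMG00090 went from 32.4, 32.5 and 21.1 CPM to 2.43, 3.29 and 2.78 CPM, with no overlap (log2 change -3.34 ± 0.61, adjusted p = 6.62e-05). ATMG00070, ATMG00080 and ATMG00510 changed by -3.17, -3.13 and -2.72. ATMG01080 did not pass the test at 24 °C (-0.61, adjusted p = 0.418), nor did ATMG00730 (-1.77, adjusted p = 0.0515), ATMG00020 (-1.35, adjusted p = 0.068) or ATMG01390 (-1.72, adjusted p = 0.0578). The nuclear rRNA share was 1.81 to 3.99% at light 10 and 0.364 to 0.527% at light 100. With it as a covariate 21 members were called lower and 0 higher, 17 of the 20 among them, and the median log2 change over the members was -0.72. With its log2 as a covariate 3 members were called lower and 9 higher, the median log2 change over the members was 0.17, and ATMG01190 stood at 0.22 (adjusted p = 0.551) and ATMG01360 at 0.24 (adjusted p = 0.523). These fits called 27.2 and 18.9% of all genes in either direction.

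**Figure D2:**
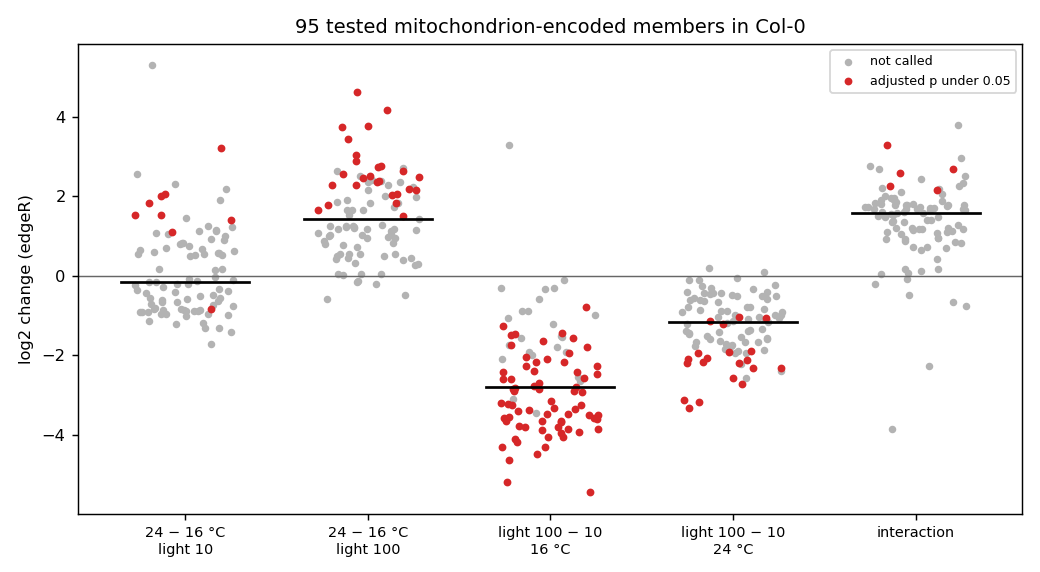
Log2 changes from edgeR of 95 tested members in 5 Col-0 comparisons, with members at an adjusted p under 0.05 in red and the median as a bar. The median is -2.80 for light at 16 °C and -1.16 for light at 24 °C, and 1.43 for warmth at light 100 against -0.16 for warmth at light 10.

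Warmth at light 10 was called for few members in Col-0. From 16 to 24 °C, 8 of 95 members rose and 1 fell, where 11.4% of all genes were called in each direction, so the share of members called was below that of all genes. The median log2 change over the members was -0.16. ATMG01190 (-1.18, adjusted p = 0.203), ATMG00220 (-0.80, adjusted p = 0.389), ATMG01080 (-0.77, adjusted p = 0.298), ATMG00290 (-0.86, adjusted p = 0.17) and ATMG01360 (-0.71, adjusted p = 0.476) did not pass the test. ATMG00660 fell by 0.85 on the log2 scale (adjusted p = 0.0452), and with the nuclear rRNA share as a covariate its change was -0.41 (adjusted p = 0.193). The balance of directions depended on the libraries in the fit. Without the 3 libraries that stood apart, all of other lines, the fit tested 23780 genes, and 9 members were called higher and 7 lower, and ATMG00020 (-1.42, adjusted p = 0.0106) was among those 7. That fit called 22.1% of all genes in either direction.

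The 8 members that rose were ATMG00590, ATMG01090, ATMG00040, ATMG00170, ATMG00620, ATMG01370, ATMG09450 and ATMG09730. Only the first pair have a note with a product, a cytochrome b/b6 protein and an "ATP synthase 9 mitochondrial" protein, and the other 6 are named because they passed the test. ATMG00590 measured 0.407, 0.121 and 0.270 CPM at 16 °C and 2.64, 2.74 and 2.13 CPM at 24 °C. The 3 warm libraries were all above the 3 cool ones, with a log2 change of 3.21 ± 0.39 (adjusted p = 4.25e-08). ATMG01090 measured 0.930, 1.18 and 0.834 CPM at 16 °C and 3.49, 3.44 and 3.50 CPM at 24 °C (log2 change 1.83 ± 0.36, adjusted p = 0.000202). ATMG00170 changed by 2.06, ATMG00620 by 1.99, ATMG09450 by 1.53, ATMG09730 by 1.52, ATMG00040 by 1.39 and ATMG01370 by 1.1.

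Nuclear rRNA went the other way in these libraries, with a share from 4.90 to 9.0% at 16 °C to 1.81 to 3.99% at 24 °C. With that share as a covariate all 8 were still called higher, with log2 changes of 1.55 for ATMG01370 to 3.41 for ATMG00590. In all, 14 of the 95 members were called higher and 0 lower. That fit called 5354 of 22828 genes in either direction, so the share of members called was below that of all genes. The same 8 members were then read in libraries that had not chosen them. In Col-0 at light 100 all 8 were called higher, with log2 changes of 2.17 to 4.16. The median over all 95 members was 1.43 there. In the mutant lines the estimated log2 changes of all 8 were above 0 at both lights, and the median over all 95 members was above 0 as well in 4 of these 6 cases. In Atpif4-2 at light 10 the 8 ran from 0.54 to 2.31, where the median over all members was -0.74. In Athy5-2 at light 100 they ran from 0.72 to 1.56, where that median was -0.62. At light 10 they ran from 0.53 to 1.97 in Atphyb-9 (median over all members 0.55) and from 1.18 to 3.35 in Athy5-2 (1.43). At light 100 they ran from 1.51 to 3.09 in Atpif4-2 (1.11) and from 2.1 to 4.08 in Atphyb-9 (2.1). The 8 members need not be independent of each other. ATMG00170 and ATMG00620 both had 4, 8 and 2 counts in Col-0 at 16 °C and light 100. In Atphyb-9 at 16 °C and light 10 they had 33, 5 and 18 against 45, 7 and 21. ATMG09450 and ATMG09730 had 43, 50 and 57 against 29, 31 and 37 in Col-0 at 24 °C and light 10. Sharing of reads within these pairs was not tested.

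Every warm library was above every cool library for all 8 members at light 100 in each mutant line, as it was for 58 of the 113 members in Atpif4-2, 64 in Atphyb-9 and 20 in Athy5-2. At light 10 it was so for 7 of the 8 in Atpif4-2 and in Atphyb-9, beside 20 and 29 of the 113, and for all 8 in Athy5-2, beside 76 of the 113. The same count over all genes was not made, so whether these counts are unusual for the members cannot be told.

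Warmth at light 100 raised a larger number of members in Col-0. Of the 95 tested, 26 rose and 0 fell, where 18.9% of all genes were called higher and 17.0% lower, and the median log2 change over the members was 1.43 against 0.01 over all genes. Called higher were 2 of 4 ATP synthase members, 2 of 3 cytochrome c maturation members and 5 of 8 members with other annotated products, and also 12 of 55 without a note and 5 of 16 with a note but no stated role. Among the 5 with other annotated products was ATMG01280, the cytochrome c oxidase subunit II-like member, with a log2 change of 2.16 (adjusted p = 0.00952). The 3 noted complex I members, apocytochrome b, ATMG00730 of complex IV and the 4 noted ribosomal protein members had log2 changes of 0.54 to 1.22 and did not pass the test. ATMG00560, noted as an OB-fold-like protein but listed by role as the ribosomal protein gene rpl2, was called higher (1.83, adjusted p = 0.0116). A difference between roles was not tested.

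ATMG01080 went from 0.677, 0.598 and 0.721 CPM at 16 °C to 4.08, 3.84 and 3.45 CPM at 24 °C. Its groups did not overlap, and the log2 change was 2.51 ± 0.58 (adjusted p = 0.000897). ATMG00480 went from 0.238, 0.0934 and 0.233 CPM to 1.19, 1.04 and 0.903 CPM (log2 change 2.47 ± 0.51, adjusted p = 0.000165). ATMG00180, annotated for cytochrome c biogenesis, changed by 2.56 (adjusted p = 3.71e-05) and ATMG01090 by 3.44 (adjusted p = 9.73e-09).

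ATMG00110, without a note but listed for cytochrome c maturation, changed by 2.75 (adjusted p = 2.53e-05) and ATMG01380 by 1.64 (adjusted p = 0.00036). ATMG00620 and ATMG00170 had log2 changes of 4.16 and 3.74. ATMG01190 had a log2 change of 1.25 (adjusted p = 0.174), ATMG00220 of 0.55 (adjusted p = 0.649), ATMG01390 of 0.44 (adjusted p = 0.661) and ATMG00020 of -0.59 (adjusted p = 0.444). The nuclear rRNA share was 0.480 to 0.799% at 16 °C and 0.364 to 0.527% at 24 °C, and with it as a covariate 45 members were called higher and 0 lower. That fit called 37.7% of all genes in either direction. The comparison shares its 16 °C libraries with the light comparison at 16 °C, and these were the libraries in which most members were lowest.

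The change with warmth differed between the lights for 5 members in Col-0. In the test of the interaction, ATMG01080 (3.28 ± 0.77, adjusted p = 0.00598), ATMG00480 (2.58, adjusted p = 0.00991), ATMG00560 (2.67, adjusted p = 0.0237), ATMG00110 (2.25, adjusted p = 0.0231) and ATMG00620 (2.16, adjusted p = 0.0408) were called with a more positive warmth change at light 100. ATMG00560 is noted as a nucleic acid-binding OB-fold-like protein. No member was called in the other direction. The 5 are 5.26% of the 95 members, near the 4.55% of all genes called higher, and 2.62% of all genes were called lower. The median interaction over the members was 1.58 on the log2 scale. DESeq2 called 9 members, where it called 9.25% of all genes, and gave no adjusted p for 34 of the 95 members. The closeness to all genes depended on the fit. With the nuclear rRNA share as a covariate 5 members were called higher, and 23 with its log2. Those fits called 9.41 and 9.61% of all genes in either direction. Without the 3 libraries that stood apart 14 members were called higher, and 7.22% of all genes in either direction.

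The balance between the 2 most abundant members, both listed as ribosomal RNA genes, and the rest moved with temperature. In Col-0 the counts of the other 111 members, divided by those of ATMG00020 plus ATMG01390, gave ratios of 0.186 ± 0.019 (SD, n = 3) at 16 °C and 0.281 ± 0.018 at 24 °C at light 10. At light 100 the ratios were 0.129 ± 0.005 at 16 °C and 0.289 ± 0.030 at 24 °C. A ratio within a library does not depend on how libraries are scaled. With libraries reassigned between temperatures within each light, the mean log2 ratio differed by 0.88 in Col-0, 0.65 in Atpif4-2 and 0.58 in Atphyb-9. The exact two-sided permutation p was 0.005 for each of these lines, the smallest that 400 assignments can give, and 0.00667 after Benjamini-Hochberg adjustment over the 4 lines. In Athy5-2 the difference was -0.01 (exact two-sided permutation p = 0.945). There the ratio was lower at 24 °C at light 10 (0.141 ± 0.018 against 0.173 ± 0.015) and higher at light 100 (0.259 ± 0.002 against 0.215 ± 0.015), and the groups overlapped at neither light. This ratio and its test were chosen after the values were seen. The 2 parts of the ratio need not follow the nuclear rRNA share with the same slope, as shown next.

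Within groups, members followed the nuclear rRNA share of the library. In 12 of 16 groups the library with the highest share also had the highest summed level of the 111 members, and in 12 of 16 groups it had the highest level of ATMG00020 plus ATMG01390. In a fit with 1 mean per group and the log2 share as a slope, all 95 members had a slope above 0 and 60 were called, where 7.98% of all genes were called with a positive slope. The median slope was 0.45 on the log2 scale per doubling of the share, and it was -0.01 over all genes tested. ATMG01390 had a slope of 0.90 ± 0.03 (SE), ATMG01360 of 0.88 ± 0.04, ATMG01190 of 0.86 ± 0.04 and ATMG00020 of 0.71 ± 0.04. The 8 members that rose with warmth at both lights had slopes of 0.18 to 0.32, all below the median of the 95, with 0.27 ± 0.07 for ATMG01090 (adjusted p = 0.00819) and 0.21 ± 0.08 for ATMG00590 (adjusted p = 0.077). The difference in slope between these 8 and the other members was not tested. Whether rRNA was removed or poly(A) RNA selected before sequencing is not given in the sources used here, and the part of library making in the differences between groups was not tested.

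**Figure D3:**
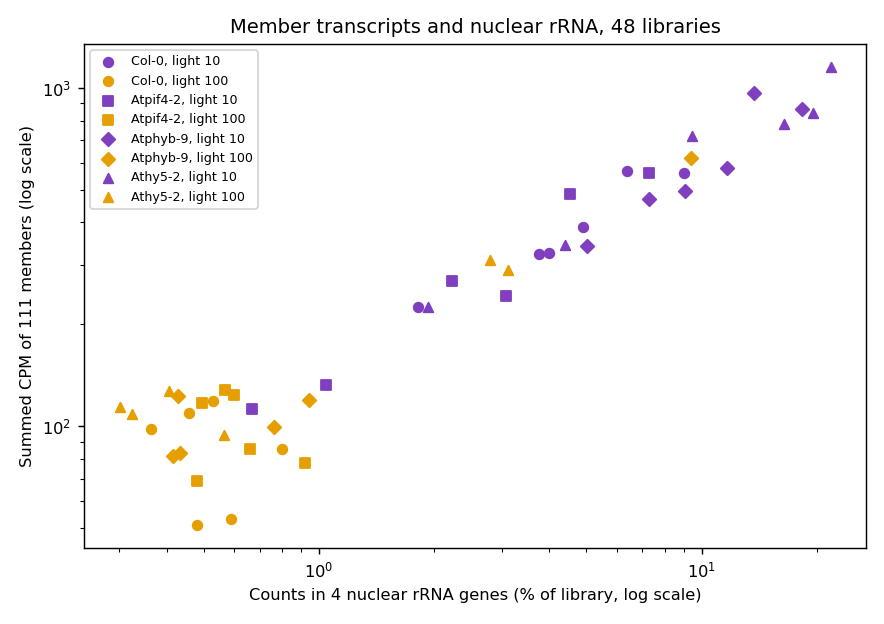
Summed CPM of 111 members against the percentage of counts in 4 nuclear rRNA genes for 48 libraries, both on log scales, with lines by marker and light by colour. Libraries at light 10 span 0.667 to 21.8% and 113 to 1153 CPM, libraries at light 100 span 0.302 to 9.37% and 51.0 to 618 CPM, and the 3 libraries at light 100 with more than 2% lie among those of light 10.

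In Atpif4-2 no member was called against Col-0. Averaged over the 4 conditions, edgeR called 0 members in either direction, 2 had an unadjusted p under 0.05 and DESeq2 called 0, where edgeR called 6.93% of all genes higher and 6.65% lower. The median log2 difference over the members was -0.11. edgeR called the difference in the warmth change for 0 members (1 at an unadjusted p under 0.05, 0 by DESeq2), and for 5.74% of all genes higher and 6.27% lower. It called the difference in the light change for 0 members (12 at an unadjusted p under 0.05, 2 by DESeq2), and for 0.574% of all genes higher and 0.219% lower. For the average, warmth and light differences DESeq2 called 15.6, 14.1 and 1.91% of all genes. ATMG01190 measured 94.0, 49.7 and 94.9 CPM at 16 °C and light 10 in Atpif4-2, around the 58.8 to 95.4 CPM of Col-0. At 24 °C and light 10 it measured 9.65, 33.2 and 14.3 CPM, where Col-0 had 23.1 to 44.0 CPM and the groups overlapped. The nuclear rRNA share in that group was 0.667 to 3.08%, against 1.81 to 3.99% in Col-0. A missing call does not show that the lines were alike.

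In Atphyb-9, nearly all members had higher estimates than in Col-0 and 47 of 95 were called. Averaged over the 4 conditions, 47 rose and 0 fell, where 17.1% of all genes were called higher and 16.5% lower, and the median log2 difference over the members was 0.82. Called higher were 2 of 4 ATP synthase members, 2 of 3 complex I members, apocytochrome b, the complex IV member, 2 of 3 cytochrome c maturation members and 1 of 4 ribosomal protein members. ATMG00220 had a log2 difference of 1.62 ± 0.35 (adjusted p = 0.00043), ATMG01360 of 1.57 and ATMG00990 of 1.23 ± 0.21 (adjusted p = 1.28e-05). For ATMG01170, without a note but listed for the ATP synthase, it was 1.29 (adjusted p = 0.0036).

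The difference was uneven over conditions and libraries. At 24 °C and light 10, ATMG01360 measured 59.4, 24.5 and 30.9 CPM in Atphyb-9 and 11.5, 10.6 and 7.76 CPM in Col-0, with no overlap. At 24 °C and light 100 it measured 29.1, 3.34 and 2.56 CPM in Atphyb-9, where only the first library stood far above the 2.01 to 2.55 CPM of Col-0. ATMG01190 in the same 3 Atphyb-9 libraries measured 83.3, 8.39 and 6.89 CPM against 6.63 to 9.69 CPM in Col-0. That first library is the one with a nuclear rRNA share of 9.37%, and without it 31 members were called higher. Without the 3 libraries that stood apart 32 members were called higher, and 28.5% of all genes in either direction.

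The nuclear rRNA share in Atphyb-9 was 9.02 to 18.3% at 24 °C and light 10 and 5.03 to 13.7% at 16 °C and light 10, where Col-0 had 1.81 to 3.99% and 4.90 to 9.0%. With the share as a covariate 1 member was called higher, ATMG00990 (0.44, adjusted p = 0.011), the NADH dehydrogenase 3 member. With its log2 as a covariate 8 were called higher and 2 lower. These fits called 20.4 and 23.6% of all genes in either direction. ATMG01190 stood at -0.10 (adjusted p = 0.848) with the share as a covariate, against 0.99 (adjusted p = 0.0206) without it, and ATMG00020 at -0.03 against 1.02.

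Differences in the response of Atphyb-9 to its environment were called for few members. The warmth change was more positive than in Col-0 for ATMG00080 (1.86, adjusted p = 0.0221), ATMG00090 (1.69, adjusted p = 0.0262) and ATMG00660 (1.08, adjusted p = 0.00892), where 10.1% of all genes were called higher and 12.4% lower. With the share as a covariate none of these 3 was called (adjusted p from 0.335 to 0.344), and 4 other members were called lower. That fit called 21.8% of all genes in either direction. The light change was more positive for ATMG00090 (2.01, adjusted p = 0.0234), where 4.53% of all genes were called higher and 3.39% lower. ATMG00090 measured 48.3, 24.2 and 18.5 CPM at 16 °C and light 10 in Atphyb-9, below the 60.3 to 69.5 CPM of Col-0, and 37.9, 6.56 and 6.53 CPM at 24 °C and light 100, above the 2.43 to 3.29 CPM of Col-0.

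In Athy5-2, 52 of 95 members were called higher than in Col-0 and 0 lower, averaged over the 4 conditions. Among all genes 22.8% were called higher and 23.0% lower, and the median log2 difference over the members was 0.67. All 4 ATP synthase members, 2 of 3 complex I members, apocytochrome b, the complex IV member, 2 of 3 cytochrome c maturation members and 1 of 4 ribosomal protein members were called higher. ATMG00220 had a log2 difference of 1.53 ± 0.35 (adjusted p = 0.000483), ATMG01080 of 0.99 ± 0.27 (adjusted p = 0.00266), ATMG01360 of 1.56 and ATMG00510 of 1.33.

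The group with the highest mean for 75 members was Athy5-2 at 24 °C and light 10. ATMG01360 measured 49.7, 56.7 and 86.8 CPM there, against 11.5, 10.6 and 7.76 CPM in Col-0. ATMG00730 measured 10.3, 14.5 and 19.5 CPM, against 2.69, 2.76 and 1.70 CPM in Col-0. The summed level of the 111 members was 927 ± 198 CPM (SD, n = 3), against 290.3 ± 56.7 CPM in Col-0, and no library of either group reached the other. The nuclear rRNA share was 16.45 to 21.8% in these Athy5-2 libraries and 1.81 to 3.99% in those of Col-0. The green shoot markers summed to 87480.0 to 154600.0 CPM there against 80730.0 to 86160.0 CPM in Col-0, and the root markers to 1097 to 1359 CPM against 2039 to 2241 CPM. By group means 3 of 5 green markers were higher in Athy5-2 and RCA, Rubisco activase, was lower, at 4324 CPM against 6080.0 CPM. Of the 11 root markers 9 were lower, PYK10 at 1029 CPM against 1884 CPM, and SHR was higher, at 36.0 CPM against 26.2 CPM. At 16 °C and light 10 the groups overlapped, with 36.6, 61.1 and 122 CPM for ATMG01190 in Athy5-2 and 58.8 to 95.4 CPM in Col-0.

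At 16 °C and light 100, ATMG01190 measured 32.9, 36.2 and 6.64 CPM in Athy5-2 against 1.81 to 5.30 CPM in Col-0, and the first 2 of these libraries are those with nuclear rRNA shares of 3.12 and 2.79%. Without the 3 libraries that stood apart 28 members were called higher in Athy5-2, and 35.3% of all genes in either direction. With the share as a covariate 1 was called higher, ATMG01090 (0.47, adjusted p = 0.0367), and 1 lower. With the log2 share 28 were called higher and 1 lower, and ATMG00220 (0.79, adjusted p = 2.03e-05) and ATMG01360 (0.76, adjusted p = 1.46e-07) were among the 28. The fits with the share and with its log2 called 31.2 and 38.4% of all genes in either direction. ATMG01190 stood at -0.05 (adjusted p = 0.934) with the share and 0.20 (adjusted p = 0.0935) with its log2, against 0.97 (adjusted p = 0.0165) without either.

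The light change was less negative in Athy5-2 than in Col-0 for 7 members, where 13.4% of all genes were called with a positive difference and 12.7% with a negative one, so the share of members was below that of all genes. ATMG00090 had a difference of 2.56 ± 0.57 (adjusted p = 0.00114), ATMG00080 of 2.34, ATMG00110 of 1.70, ATMG00370, noted as a Ycf1 protein, of 1.56 and ATMG00290 of 1.43. ATMG00010 and ATMG00630 were also called but reached at most 1.1 CPM in any library and were at 0 in some, so no fold is given for them. ATMG00090 measured 18.8, 17.4 and 36.0 CPM at 16 °C and light 10 in Athy5-2 against 60.3 to 69.5 CPM in Col-0, and 38.6, 51.3 and 7.59 CPM at 16 °C and light 100 against 2.58 to 6.77 CPM. The order of the lines was thus opposite at the 2 lights, and the pair of high values at light 100 came from the libraries that stood apart. Without these, 4 members had a called positive difference and 2 a called negative one, and the median over the members was -0.11 in place of 0.39. That fit called 25.4% of all genes in either direction.

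The warmth change was more negative in Athy5-2 for ATMG00590 (-1.25, adjusted p = 0.00949), ATMG00370 (-1.18, adjusted p = 0.0203) and ATMG01090 (-0.95, adjusted p = 0.0468), where 16.1% of all genes were called with a negative difference and 12.7% with a positive one. ATMG00590 nonetheless rose in its estimates with warmth at both lights in Athy5-2, as given above. Without the 3 libraries that stood apart none of these 3 was called (adjusted p from 0.0696 to 0.378). The direction then turned, with a median over the members of 0.48 in place of -0.30. ATMG00020 (1.65, adjusted p = 0.00954) and ATMG00030 (1.35, adjusted p = 0.0148) were called with a more positive warmth change, and 0 members with a more negative one. Without those libraries 21.7% of all genes were called in either direction. With the share as a covariate 51 members were called with a more negative warmth change and 51 with a more positive light change. For these differences that fit called 30.4 and 17.7% of all genes in either direction.

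**Figure D4:**
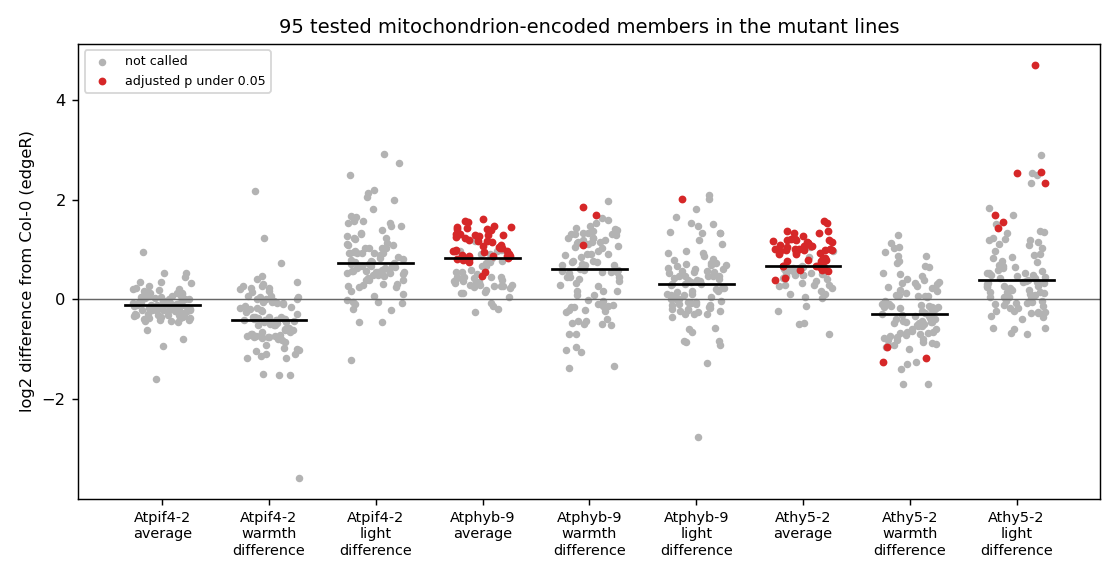
Log2 differences from Col-0 of 95 tested members for the average over 4 conditions, the warmth change and the light change in each mutant line, with members at an adjusted p under 0.05 in red and the median as a bar. The medians of the averages are -0.11 in Atpif4-2, 0.82 in Atphyb-9 and 0.67 in Athy5-2, with 0, 47 and 52 members called.

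Most chromosome 2 copies had estimates of the same sign as their mitochondrial members. In the 36 pairs of 35 members with both genes tested, the light step at 16 °C in Col-0 was called lower for 28 members and 32 copies, and the sign of the estimate was the same in 36 of 36 pairs. ATMG01190 and AT2G07698 had log2 changes of -4.63 and -4.56, and ATMG00980 and AT2G07675 of -1.64 and -1.63. ATMG00220 changed by -3.93 where its copy changed by -3.64. The sign was the same in 33 of 36 pairs for warmth at light 100 and in 28 of 36 for the Atpif4-2 average. The 35 members held 148745 counts and the 36 copies 228142. Since reads of identical stretches cannot be told apart by sequence, these pairs are not independent measurements.

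Some pairs differed. ATMG00560 and AT2G07715, identical at 99.844% of aligned bases, had log2 changes of -3.57 and -1.17 with light at 16 °C and of 1.83 (adjusted p = 0.0116) and -0.33 (adjusted p = 0.479) with warmth at light 100. ATMG00590 and AT2G07718, identical at 99.983%, had changes of 3.21 (adjusted p = 4.25e-08) and 0.85 (adjusted p = 0.0691) with warmth at light 10. The copy AT2G07718 held 13702 counts and ATMG00590 held 1961. The difference within a pair was not tested. These 2 pairs were chosen after their values were seen.

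**Figure D5:**
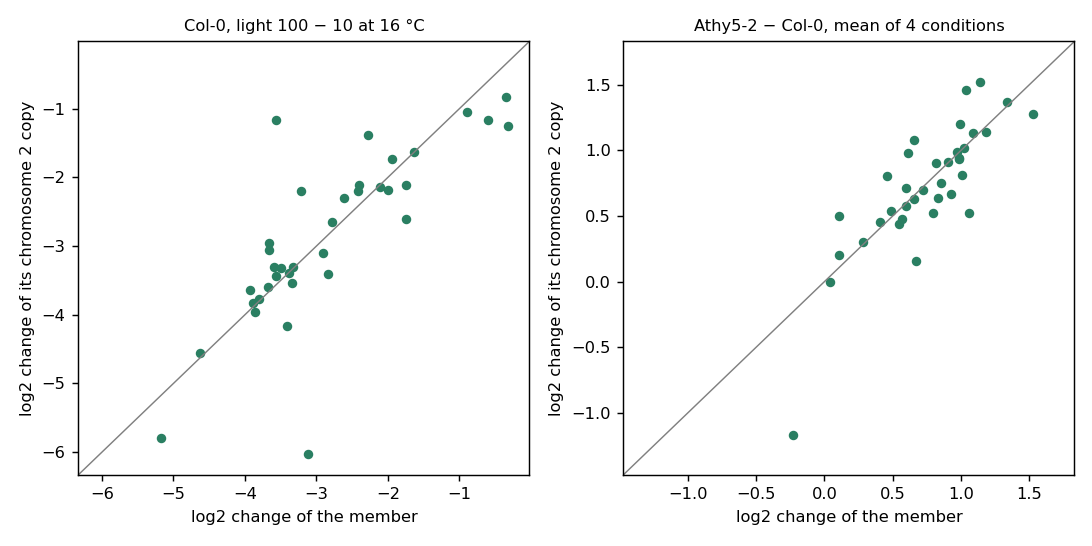
Log2 changes in 36 pairs of 35 members (horizontal) and their chromosome 2 copies (vertical) for light at 16 °C in Col-0 and for Athy5-2 against Col-0 over 4 conditions, with the line of equal change. Most pairs lie near the line, with a median absolute difference of 0.26 for light and 0.10 for Athy5-2, and the farthest pairs are 2.92 and 0.94 from it.

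Nuclear genes for the respiratory chain and the ATP synthase had medians of the opposite sign to the members in Col-0 for light at 16 °C and for warmth at light 100. Of 21 nuclear genes for respiratory chain and ATP synthase subunits, 12 rose and 1 fell with light at 16 °C, where 71 members fell. With warmth at light 100, 1 rose and 19 fell, where 26 members rose. Of all genes 17.4% were called higher and 19.6% lower with light, and 18.9 and 17.0% with warmth. SDH1-1, the flavoprotein subunit of succinate dehydrogenase, had log2 changes of 1.2 (adjusted p = 1.8e-10) with light and -1.1 (adjusted p = 1.64e-09) with warmth. It belongs to complex II, for which no member is annotated. Of the 16 nuclear genes left without complex II and cytochrome c, 8 rose and 1 fell with light (median 0.23), and 1 rose and 14 fell with warmth (median -0.53). GAMMA CA2, a carbonic anhydrase-like subunit of complex I, changed by 0.56 and -0.66, and COX6B of complex IV by 0.61 with light. GAMMA CAL2, another subunit of that type, was the gene that fell with light at 16 °C (-0.64, adjusted p = 2.66e-05). The median change over the list was 0.31 with light and -0.55 with warmth, far smaller in size than the -2.80 and 1.43 of the members. Both comparisons contain the same cool, bright libraries.

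Against Col-0 the nuclear list moved the same way as the members in the lines where members were called. In Athy5-2, 15 of 21 rose and 0 fell, with a median log2 difference of 0.28, and in Atphyb-9, 9 rose and 0 fell, with a median of 0.13. Of all genes 22.8% were called higher and 23.0% lower in Athy5-2, and 17.1 and 16.5% in Atphyb-9. In Atpif4-2, where no member was called, 6 of the list rose and 0 fell, beside 6.93% of all genes called higher and 6.65% lower. AT5G13440, a Rieske iron-sulfur subunit of complex III, had a difference of 0.39 (adjusted p = 2.44e-07) in Athy5-2 and 0.30 (adjusted p = 3.18e-05) in Atphyb-9. AT5G08690, a beta subunit of the ATP synthase, had 0.48 and 0.35, and is uncertain because its near-identical neighbours AT5G08670 and AT5G08680 could share its reads.

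Of 14 genes of alternative respiration and mitochondrial stress, 5 rose and 0 fell with light at 16 °C in Col-0, where 17.4% of all genes were called higher and 19.6% lower. AT5G51440, a mitochondrial small heat shock protein, changed by 1.59 (adjusted p = 0.000387), BCS1, an AAA-type ATPase, by 2.20 (adjusted p = 0.00316), NDA1, an internal alternative NADH dehydrogenase, by 0.48 (adjusted p = 0.00608) and AT2G21640 by 1.67 (adjusted p = 0.018). With warmth at light 100, 1 rose and 3 fell, where 18.9% of all genes were called higher and 17.0% lower. BCS1 changed by -3.76 (adjusted p = 1.48e-05), NDB2, an external alternative NADH dehydrogenase, by -1.30 (adjusted p = 1.63e-05), PUMP1, an uncoupling protein, by -0.60 (adjusted p = 0.00112) and AOX1A, the alternative oxidase, by 0.42 (adjusted p = 0.00709). The Col-0 libraries at 16 °C varied widely in BCS1, at 38.5 ± 27.3 CPM (SD, n = 3) at light 100 and 8.43 ± 7.34 CPM at light 10. At 24 °C and light 100 it stood at 2.84 ± 0.60 CPM.

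Of 21 nuclear factors for mitochondrial gene expression, 2 rose and 2 fell with light at 16 °C in Col-0, where 17.4% of all genes were called higher and 19.6% lower. With warmth at light 100, 2 rose and 3 fell, where 18.9 and 17.0% of all genes were called. AT5G14580, a polynucleotide phosphorylase that degrades mitochondrial RNA, had log2 changes of 1.42 (adjusted p = 1.55e-06) with light at 16 °C and -1.46 (adjusted p = 9.45e-07) with warmth at light 100. PMH1, a mitochondrial DEAD-box RNA helicase, changed by 0.43 (adjusted p = 0.0444) and -1.31 (adjusted p = 1.13e-07). In Athy5-2, 4 rose and 6 fell against Col-0, near the shares among all genes of 22.8% higher and 23.0% lower. MORF3, an RNA editing factor, had a difference of 0.52 (adjusted p = 5.89e-08) and POLGAMMA1, an organelle DNA polymerase, of -0.50 (adjusted p = 5.16e-07). Both are averages over conditions, and at 24 °C and light 100 the group means went the other way. There POLGAMMA1 had 22.1 ± 0.71 CPM (SD, n = 3) in Athy5-2 against 18.6 ± 2.8 CPM in Col-0. MORF3 had 13.0 ± 1.5 CPM against 13.9 ± 0.07 CPM.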

How the data were processed

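RNA-seq libraries of Arabidopsis seedlings were prepared from RNA extracted with the NucleoSpin RNA Plant kit and sequenced on DNBseq as paired reads of 100 bases, per the labels' protocols. Per the submitters' processing notes, the tools included FastQC 0.11.5 and HISAT2 2.1.0. The sources used here give no counter, genome build, use of strand, rRNA removal or poly(A) selection. The authors deposited raw counts, which are whole numbers per gene and library. The members and gene lists were chosen with earlier results of these data known.

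The fit took all 48 libraries, with a mean for each of 16 groups, in edgeR 4.0.16 under R 4.3.3 (limma 3.58.1), using TMM scaling (factors 0.501 to 1.51), filterByExpr (minimum count 10), robust quasi-likelihood F tests (32 residual degrees of freedom, common biological coefficient of variation 0.204) and Benjamini-Hochberg adjustment over 22828 genes. Calls were made at an adjusted p under 0.05 in 14 comparisons. Mutant averages weight the 4 conditions equally, and the warmth and light differences are the mutant's mean change minus that of Col-0. Changes within a mutant line are estimates with no test. Errors of log2 changes are SE. The steps were tested on simulated counts. Alternatives were RLE scaling, scaling to nuclear genes without rRNA, no filter, DESeq2 1.42.0, fits of fewer lines, a replicate block, each library left out, and covariates. The named members were those with an annotated role, 11 listed identifiers, and, among members with a mean of at least 5 CPM, the 4 highest and 4 lowest called per Col-0 comparison and 2 and 2 per mutant comparison; others were named after their values were seen. For nuclear lists, examples were taken from the up to 4 called genes with the smallest adjusted p. No pair of libraries within a group agreed within sampling noise. The reference carries its own mitochondrial gene names, which were linked by sequence for ATMG01190 and ATMG00980 only, and its coordinates are those of TAIR10.1, whatever build the authors used.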

Additional observations from a re-analysis of the deposited data

Results flagged for a closer look

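The following were singled out because a test of a difference between groups called some members. Each count is out of 95 members tested. In Col-0 the change with warmth differed between the lights for 5 members, all with a more positive change at light 100. They are 5.26% of the members, near the 4.55% of all genes called in that direction. That closeness depended on the fit, as given with the interaction above. The other counts were below the share among all genes. Between Atphyb-9 and Col-0 the change with warmth differed for 3 members (3.16%, against 10.1% of all genes called higher) and the change with light for 1 (1.05%, against 4.53% called higher). Between Athy5-2 and Col-0 the change with warmth differed for 3 members (3.16%, against 16.1% called lower) and the change with light for 7 (7.37%, against 13.4% called higher).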

How the results depend on the processing

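RLE scaling, scaling to nuclear genes without rRNA and no filter on low counts kept every count of called members within 1.5 times the reported count, and moved the median of all genes by under 0.1. Without the filter the median member change with warmth at light 10 in Col-0 was 0.17 in place of -0.16. Counts below are members called.

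With the nuclear rRNA share as a covariate, the counts were 14 for Col-0 warmth at light 10 and 45 at light 100. They were 3 for the Atpif4-2 warmth and 2 for its light difference, 1 for the Atphyb-9 average and 11 for its light difference. For Athy5-2 they were 2 for the average, 51 for the warmth and 51 for the light difference. In the same order this fit called 5354, 8601, 3169, 308, 4667, 1226, 7117, 6931 and 4047 of 22828 genes in either direction. With the log2 share, chosen after seeing the data, the member counts were 16 and 55 for warmth at the 2 lights. They were 23 and 12 for light at 16 and 24 °C and 23 for the interaction. For Atpif4-2 they were 2, 5 and 3 (average, warmth, light), for Atphyb-9 10, 11 and 7, and for Athy5-2 29, 23 and 22. In the same order the log2 fit called 24.5, 37.8, 27.4, 18.9 and 9.61% of all genes in Col-0. It called 18.6, 13.4 and 2.55% for Atpif4-2, 23.6, 23.1 and 8.92% for Atphyb-9, and 38.4, 32.3 and 26.4% for Athy5-2. Of the Athy5-2 warmth calls 21 were lower and 2 higher. The cause was not tested. Without the 3 libraries that stood apart, also chosen after seeing the data, they were 16 for warmth at light 10 (9 higher and 7 lower), 34 for light at 24 °C, 14 for the interaction, 2 for the Atpif4-2 light difference, 2 for the Atphyb-9 light difference, and 28 for the Athy5-2 average. In the same order that fit called 22.1, 27.7, 7.22, 1.03, 9.58 and 35.3% of all genes. In fits of only the lines compared the member counts were 26 and 41 for warmth, 43 for light at 24 °C, 34 for the interaction and 4 for the Atpif4-2 light difference. Of 21718 genes tested with Col-0 alone, 6673 and 9625 were called for warmth, 8099 for light at 24 °C and 2816 for the interaction. Of 22200 genes tested with Col-0 and Atpif4-2, 412 were called for the light difference. DESeq2 gave 35 for light at 24 °C, 9 for the interaction and 2 for the Atpif4-2 light difference, and called 31.0, 9.25 and 1.91% of all genes.

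Leaving out each library gave 7 to 10 for warmth at light 10, 20 to 31 at light 100, 62 to 72 for light at 16 °C, 9 to 22 at 24 °C and 2 to 10 for the interaction. For the average, warmth and light differences it gave 0 to 0, 0 to 0 and 0 to 1 in Atpif4-2, 31 to 49, 1 to 9 and 1 to 2 in Atphyb-9, and 42 to 55, 1 to 3 and 5 to 12 in Athy5-2. Counts that moved by over 1.5 times were these. Light at 24 °C gave 13 without Col-0 24 °C, light 10 replicate 1 or 2, and 9 and 11 without Col-0 24 °C, light 100 replicates 2 and 3. The interaction gave 3 without Col-0 16 °C, light 10 replicate 2, 16 °C, light 100 replicate 1 or 2, or 24 °C, light 10 replicate 2 or 3, 10 without 16 °C, light 100 replicate 3, and 2 without 24 °C, light 100 replicate 1. The Atpif4-2 light difference gave 1 without Col-0 16 °C, light 100 replicate 3 or Atpif4-2 16 °C, light 10 replicate 3, 16 °C, light 100 replicate 3 or 24 °C, light 10 replicate 2. The Atphyb-9 average gave 31 without Atphyb-9 24 °C, light 100 replicate 1. Its warmth difference gave 1 without that library or Col-0 16 °C, light 100 replicate 3, 9 without Atphyb-9 16 °C, light 10 replicate 1 and 5 without its 24 °C, light 100 replicate 2 or 3. Its light difference gave 2, and that of Athy5-2 12, without Col-0 16 °C, light 100 replicate 3. The Athy5-2 warmth difference gave 1 without Col-0 16 °C, light 100 replicate 2, Athy5-2 16 °C, light 10 replicate 3 or 16 °C, light 100 replicate 2.

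Of the alternatives for named members, 2786 kept direction and side of the threshold, 278 lost the call and 20 changed sign, all with a covariate. With the log2 share these were ATMG00020 for light at 16 °C (0.24), for light at 24 °C ATMG00410 (0.40), ATMG00480 (0.24), ATMG01190 (0.22), ATMG01270 (0.12), ATMG01320 (0.091) and ATMG01360 (0.24), and ATMG01190 in the Atphyb-9 average (-0.11). With the share they were ATMG00020 (-0.030), ATMG00280 (-0.038), ATMG00980 (-0.17), ATMG01190 (-0.099) and ATMG01390 (-0.14) in the Atphyb-9 average, and ATMG00020 (-0.011), ATMG00210 (-0.069), ATMG00280 (-0.11), ATMG00990 (-0.16), ATMG01190 (-0.049), ATMG01320 (-0.0037) and ATMG01390 (-0.16) in the Athy5-2 average.

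Replicate numbers did not pair libraries. Over 360 pairs of same-numbered libraries of different groups the median correlation of deviations was -0.0046, and 8 exceeded 0.1. With the replicate block 9 members were called for warmth at light 10, 28 at light 100, 72 for light at 16 °C, 20 at 24 °C and 5 for the interaction. It gave 0, 0 and 0 in Atpif4-2, 42, 3 and 1 in Atphyb-9, and 51, 3 and 7 in Athy5-2. In the same order the block fit called 5134, 8137, 8396, 6451 and 1568 of all 22828 genes in Col-0. For the mutant lines it called 3009, 2675 and 173 genes in Atpif4-2, 7604, 5103 and 1746 in Atphyb-9, and 10397, 6503 and 5902 in Athy5-2. Low counts limit 66 members with a mean under 1 CPM, and 18 members were not tested.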
